A study of Mus musculus with 4 samples.

Results

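The cells described here are fetal liver barcodes that carried transcripts of both Csf1r, the receptor for the growth factor CSF1 that drives macrophage and monocyte development, and Cx3cr1, the fractalkine receptor of monocytes and their progenitors. A barcode was a member with at least 2 UMIs (unique molecular identifiers, each standing for 1 captured transcript) of Csf1r, at least 1 of Cx3cr1 and 0 of Batf3, a transcription factor of conventional dendritic cells. At least 500 detected genes and at most 10% mitochondrial UMIs were required. The rule found 631 members among 10641 kept barcodes in embryos of day E13.5 and 261 among 11702 at E14.5, 892 in all out of 31153 kept barcodes of the series. Because Csf1r, Cx3cr1 and Batf3 chose the members, their levels are a description only.

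Csf1r+ Cx3cr1+ progenitors are known as intermediates between multipotent progenitors and the mononuclear phagocytes, the family of monocytes, macrophages and dendritic cells. Irf8 is the transcription factor that steers such progenitors towards monocytes and dendritic cells and away from granulocytes, and the growth factor receptor Flt3 marks progenitors that still have lymphoid and dendritic potential. In the fetus these cells arise in the liver, the main blood-forming organ of that period.

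The study followed the origin of lymphoid tissue inducer cells, the fetal innate lymphocytes from which lymph node formation starts, in C57BL/6J mouse embryos. Fetal liver and embryonic periphery were each sampled at both ages, giving 4 groups of 1 library and no treatment named. Every library held live sorted cells that carried CD45 and IL7Ra (the interleukin 7 receptor) and lacked F4/80, a macrophage surface protein, after magnetic enrichment for CD45. The fetal liver libraries were made with version 3 of the 10x Genomics 3' chemistry and those of periphery with version 2, so tissue and chemistry cannot be told apart, and periphery is left to the closing section. How many embryos were pooled is not given in the sources used here. With 1 library per stage, stage and library cannot be told apart either, no test between stages was made, and every interval below covers counting error only.

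The fetal liver libraries held 212034840 UMIs at E13.5 and 208229937 at E14.5, with a median of 18688 and 16231.5 UMIs per kept barcode. Members were deeper, at 27353 and 27378 UMIs and 5207 and 5221 genes against 4385 and 4011 genes in all kept barcodes. A doublet caller (Scrublet) marked 45 members at E13.5 (7.13%) and 35 at E14.5 (13.4%), against 3.93% and 7.43% of all kept barcodes. The libraries shared 27 kept barcode sequences, of which 0 were members in both.

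Members made up 5.93% of kept fetal liver barcodes at E13.5 (95% exact Clopper-Pearson interval 5.49 to 6.40%) and 2.23% at E14.5 (1.97 to 2.51%). A rule on raw UMIs finds more members among deep barcodes, so the shares were also taken after every barcode was thinned to 8000 UMIs. They were then 1.28% (1.07 to 1.52%) and 0.488% (0.361 to 0.645%), without 805 and 1664 barcodes that were too shallow. The share was lower at E14.5 at both depths. The same libraries differed in B lineage barcodes, defined by at least 2 UMIs each of Cd79a and Vpreb1, which were 1.27% of kept barcodes at E13.5 and 33.5% at E14.5. The part of that difference in the share of members was not tested.

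At the edge of the rule, 157 members at E13.5 and 76 at E14.5 held exactly 2 Csf1r UMIs. Their Irf8 levels were 308 and 546 CPM (summed UMIs of a gene over summed UMIs of all genes in the same barcodes, scaled to 1000000). Just outside, 166 and 90 barcodes had 1 Csf1r UMI and otherwise met the rule, with Irf8 at 240.1 and 400.5 CPM. Many more barcodes, 2086 and 815, had at least 2 Csf1r UMIs and no Cx3cr1 UMI. Irf8 was 227 and 403 CPM in these and 445 and 557 CPM in the members. The 74 and 16 barcodes set aside for a Batf3 UMI had Id2, a transcription factor of dendritic cells and innate lymphocytes, at 590 and 405 CPM, against 127 and 76.4 CPM in members.

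The label was checked against marker genes of the cell types that a fetal liver sort could hold. Members had Irf8 at 445 CPM (95% exact Poisson interval 436 to 455) at E13.5 and, at E14.5, 557 (541 to 574), where the other kept barcodes had 131 and 158. Ptprc, the gene of CD45, was at 140.7 and 125 CPM, and Il7r, the gene of the sorted receptor, at 116 and 142 CPM. Of 18 macrophage markers 2 reached 10 CPM at either stage, Cd68 and Apoe, and the list summed to 60.3 and 51.4 CPM. Adgre1, the gene of F4/80, was at 2.64 and 1.97 CPM and C1qb, a complement gene of resident macrophages, at 0.377 and 0.262 CPM. Ly6c2, a defining gene of mature monocytes, stood at 3.87 and 4.85 CPM, and Cd14 and Fn1 were under 3 CPM at both stages. Of 12 erythroid and megakaryocyte markers 0 reached 10 CPM. The monocyte list as a whole was not near 0: 10 of its 16 genes reached 10 CPM in members at each stage, and it summed to 532 and 595 CPM against 349 and 402 in the other kept barcodes. The highest gene of this list was Clec12a, at 120.4 and 163 CPM. Ccr2 was at 63.1 and 38.4 CPM and Lyz2 at 60.2 and 43.5 CPM, and Ms4a6c of the same list is given below. Transcripts of other lists were also found in members, and these were not all above the other kept barcodes. The granulocyte precursor list was at 2185 and 1800 CPM, against 1554 and 987 in the other kept barcodes. The stem and multipotent progenitor list was at 2154 and 1975 CPM against 2384 and 1679. The lymphoid priming list was at 1248 and 1520 CPM against 1413 and 2070. The plasmacytoid list was at 502 and 858 CPM against 561 and 823. The B lineage list was at 138 and 592 CPM against 316 and 3025, and at E14.5 it was at 207 CPM in members without marked doublets. The conventional dendritic list, which holds Batf3 of the rule, was at 287 and 381 CPM against 554 and 1106. The innate lymphoid list was at 298 and 203 CPM against 608 and 377. Members thus had few macrophage transcripts and some, not all, of the monocyte markers beside high Irf8 and genes of these other lists.

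**Figure D1:**
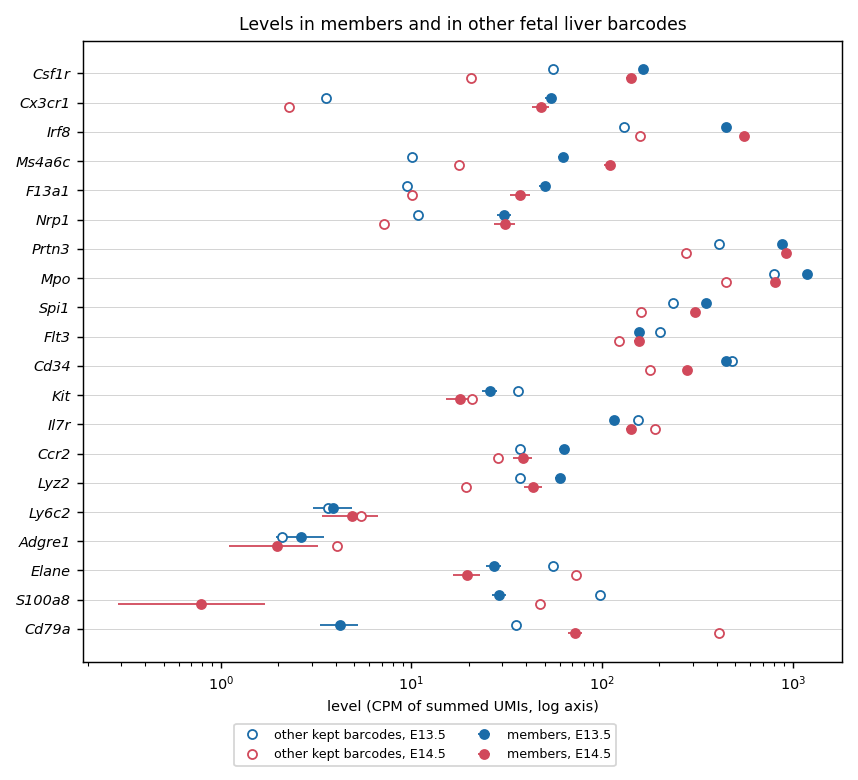
Levels of 20 genes in members (filled circles, with 95% exact Poisson intervals) and in the other kept fetal liver barcodes (open circles), as CPM of summed UMIs on a log axis, at E13.5 (blue) and E14.5 (red). Irf8 and Ms4a6c lie to the right of the other barcodes at both stages, and Adgre1 and Ly6c2 stay at a few CPM in members.

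Beside Irf8, members carried genes of early monocytic commitment together with genes of the primitive progenitor. Ms4a6c, a membrane protein gene of the monocyte lineage, was at 62.4 CPM (58.9 to 66.1) at E13.5 and, at E14.5, 109.7 (102 to 117), against 10.1 and 17.7 in the other kept barcodes. F13a1, the coagulation factor XIII subunit made by monocytes, was at 50.02 and 37.2 CPM against 9.47 and 10.1. Prtn3, a serine protease of azurophil granules, was at 877 and 922 CPM against 413 and 277. In both libraries 14 of 7935 measured genes were past 2-fold higher in members (0.176%) and 63 past 2-fold lower (0.794%), and since the same UMIs chose the members, nothing is read from these counts. Among the 14 were Csf1r and Cx3cr1 of the rule, Irf8, Ms4a6c, F13a1 and Prtn3, with Nrp1, a co-receptor of semaphorins, the prostaglandin-degrading enzyme gene Hpgd, Anxa3 and the interferon-induced Ifitm6. The lowest genes against the other barcodes included S100a9 of granulocytes, Cd79a and Ebf1 of B cells, and Tcf7 of innate lymphocytes and T cells.

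Genes of the primitive state were also present. Flt3 was at 157 and 156 CPM in members and 201.5 and 123 in the other barcodes. Cd34, a surface glycoprotein of progenitors, was at 447 and 281 CPM against 480.4 and 178. Hmga2, a chromatin protein of fetal stem and progenitor cells, was at 708 and 634 CPM against 649.8 and 409. None of the 13 measured stem and multipotent progenitor genes was past 2-fold in both libraries, and their median log2 fold over the other barcodes was -0.42 at E13.5 and -0.18 at E14.5. Of 12 measured monocyte markers 2 were past 2-fold higher, Ms4a6c and F13a1, with medians of 0.24 and 0.53. All folds are centred on the median of all measured genes (at least 10 CPM in either set), which is 0 by construction.

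The promoters of the leading genes were searched for letters bound by PU.1, the myeloid master regulator encoded by Spi1, and by IRF proteins. Spi1 itself was at 350.0 and 308 CPM in members against 236 and 160.1 in the other barcodes. Of the 20 genes with the highest folds, 15 were matched by symbol in the RefSeq promoter table on GRCm38.p6, and 250 bases before each start were read on both strands. The long PU.1 motif GAGGAAGT was in 1 of 15, Prtn3 (6.67%), and in 2.79% of all 27025 genes of the table. Its core GAGGAA, which the long motif contains, was in 7 of 15 (46.7%) and in 25.9% of all genes. The composite of Ets and IRF letters, GGAA and then GAAA after 2 free bases, was in 1 of 15, Ifitm6, and in 2.68% of all genes, and the IRF repeat, GAAA on both sides of 2 free bases, was in 0 of 15 and 3.46% of all genes. A match is a description of letters in these windows. The promoters of Prtn3 (chr10:79879417-79879666, plus strand) and Ifitm6 (chr7:141016893-141017142, minus strand) are shown because they hold the longer motifs, which are in capitals.
Prtn3: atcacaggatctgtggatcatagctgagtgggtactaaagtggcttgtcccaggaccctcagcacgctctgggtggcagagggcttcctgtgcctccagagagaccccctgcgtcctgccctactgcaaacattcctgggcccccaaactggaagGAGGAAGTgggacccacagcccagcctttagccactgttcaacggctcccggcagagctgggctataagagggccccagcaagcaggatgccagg
Ifitm6: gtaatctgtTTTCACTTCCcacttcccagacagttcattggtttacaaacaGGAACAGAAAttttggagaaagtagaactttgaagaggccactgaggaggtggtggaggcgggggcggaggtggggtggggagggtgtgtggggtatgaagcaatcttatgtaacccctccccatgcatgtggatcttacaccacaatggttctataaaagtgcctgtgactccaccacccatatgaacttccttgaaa
In Prtn3 the motif begins 95 bases before the annotated start, and the RefSeq window lies inside the longer GENCODE M21 gene model on GRCm38 (chr10:79874476-79883174). In Ifitm6 the letters are present on both strands, 241 and 199 bases before the start. The 2 matches lie in promoters of genes that were at 877 and 922 CPM and at 16.9 and 11.5 CPM in members.

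UMIs of Irf8, of a granule gene and of a progenitor gene were often found in the same member barcode. Before thinning, 79.6% of members at E13.5 (76.2 to 82.6%) and 76.2% at E14.5 (70.6 to 81.3%) had UMIs of Irf8, Mpo and Flt3 in 1 barcode, and after thinning 49.3% (45.3 to 53.3%) and 42.1% (36.0 to 48.4%). Mpo encodes myeloperoxidase, the main granule enzyme of the neutrophil lineage. With Il7r added, 69.3% and 67.0% of members held all 4 genes before thinning, and 28.4% and 25.1% after it. In thinned barcodes, Irf8 was detected in 82.6% and 87.6% of members, 34.5% and 38.4% of the other barcodes, and 39.7% and 35.4% of the B lineage barcodes. Mpo was in 87.2% and 73.4% of thinned members, 64.8% and 42.6% of the other barcodes and 23.3% and 13.2% of B lineage barcodes. Flt3 was in 69.7% and 67.6% of thinned members, 74.2% and 50.1% of the other barcodes and 41.4% and 24.0% of B lineage barcodes. At E13.5 Flt3 was thus detected more often in the other barcodes than in members. The joint shares were taken in members only and are not set beside those of other barcodes. Whether the genes were found together more often than their single shares alone would give was not tested. Part of the joint detection can be background, and that part was not tested.

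Ms4a6c was detected in 25.7% of thinned members at E13.5 (22.3 to 29.3%) and 45.6% at E14.5 (39.4 to 51.8%), and in 1.72% and 2.01% of B lineage barcodes, which should lack it. Those barcodes had median depths of 13891 and 17670.5 UMIs before thinning. Prtn3 was in 91.1% and 90.3% of thinned members against 12.1% and 10.2% of B lineage barcodes of the same depth. Its neighbour on chromosome 10, Elane (chr10:79886247-79888215), another protease of the same granules, was at 27.1 and 19.5 CPM in members, with a median of 0 UMIs per member and up to 145 UMIs in 1 of them. The share with Ms4a6c was higher at E14.5 with intervals that did not overlap, and those of Prtn3 (88.6 to 93.2% and 86.1 to 93.7%) overlapped.

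Between the stages the members differed in few genes. Of 7605 measured genes 39 (0.513%) were past 2-fold, of which 30 (0.394%) were higher and 9 (0.118%) lower at E14.5, against 1.75% in the other kept barcodes. Without marked doublets 13 (0.171%) were higher and 6 (0.0791%) lower. Higher at all, at any size, were 50% of the genes, which the centring on the median fixes by construction. The highest genes included the B cell genes Igll1, Vpreb3, Cd79a, Vpreb1 and Ebf1, which form or control the pre-B cell receptor. The lowest among genes with at least 20 CPM were S100a8, an alarmin of granulocytes, Cdh17, Stfa1, Ctla2a and Ckb.

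**Figure D2:**
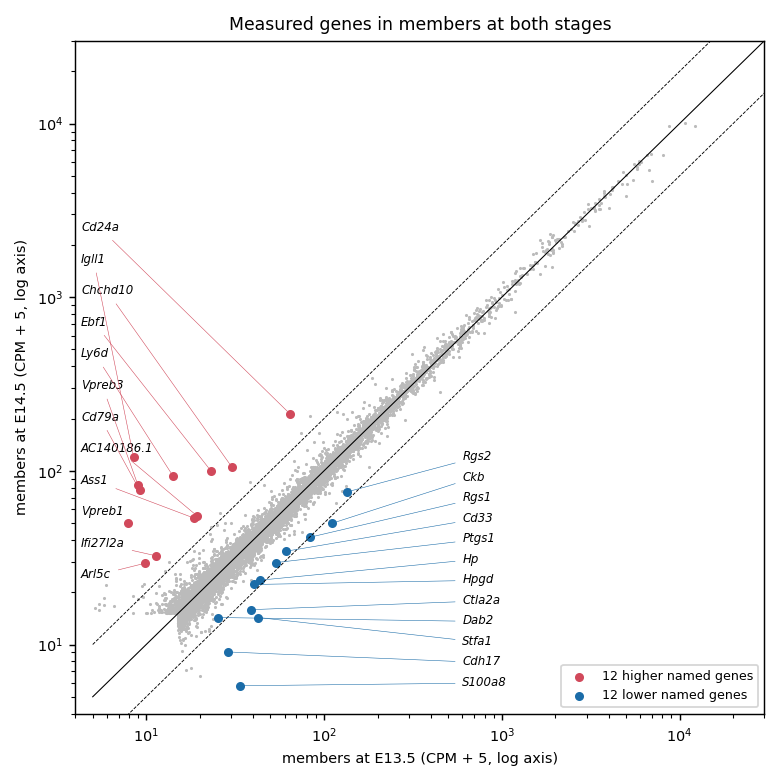
Levels of the measured genes in members at E13.5 (x axis) and E14.5 (y axis), as CPM + 5 on log axes, with the line of equal levels and dashed lines at 2-fold. The 12 highest genes of the named set (red) include 5 B cell genes above the upper dashed line, and S100a8 (blue) is the farthest below the lower one.

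Igll1, the surrogate light chain, was at 3.50 CPM (2.70 to 4.46) in members at E13.5 and, at E14.5, 114.5 (107 to 122), a log2 fold of 3.82. In the other kept barcodes it went from 18.4 to 737 CPM, a log2 fold of 5.02. It also differed in cells that should not make it: barcodes with granulocyte precursor genes (at least 5 Mpo and 2 Elane UMIs) had 7.45 and 201 CPM. In members without marked doublets the log2 fold was 2.26, and without those and all barcodes with a Cd79a UMI it was 1.81. Cd79a, a signalling chain of the B cell receptor, was at 4.20 and 72.2 CPM in members, and its fold of 3.07 was 1.81 without marked doublets. Of 10 measured B lineage genes 10 were higher at E14.5 and 9 past 2-fold, with a median log2 fold of 1.83 in members and 3.18 in the other barcodes. Of the 6 that stayed measured without marked doublets, 3 were past 2-fold and the median was 1.28. The B lineage list summed to 138 and 592 CPM in members, and to 122 and 207 CPM without marked doublets. Among members, 3 at E13.5 (0.475%) and 22 at E14.5 (8.43%) also met the B lineage rule. Marked doublets and B lineage barcodes were both more frequent at E14.5, and their part in these folds was not tested.

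Ly6d, a surface protein of lymphoid-primed and plasmacytoid progenitors, was at 9.09 CPM (7.77 to 10.6) and 89.0 (82.4 to 95.9). Its log2 fold of 2.74 was 2.62 without marked doublets and 1.60 without those and barcodes with Cd79a, and the granulocyte precursor barcodes had 1.18 and 14.9 CPM. Ifi27l2a, an interferon-induced gene, was at 6.40 and 27.4 CPM in members, a log2 fold of 1.51 that was 1.46 without marked doublets. In the granulocyte precursor barcodes it was at 1.96 and 5.32 CPM. Isg15, a ubiquitin-like protein and a main interferon target, was at 4.52 and 16.8 CPM in members (log2 fold 1.19), and at 1.57 and 1.40 CPM in the granulocyte precursor barcodes.

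Plasmacytoid dendritic cells are the main producers of type I interferon, and many of their genes were somewhat higher in members at E14.5. Siglech, their surface lectin, was at 24.8 CPM (22.6 to 27.2) and 44.8 (40.2 to 49.8), a log2 fold of 0.74. Bst2, also called tetherin, was at 113 and 213 CPM (0.89), and Cox6a2, a cytochrome oxidase subunit, at 82.8 and 142 CPM (0.75). Tcf4, the transcription factor that sets plasmacytoid identity, was at 150.7 and 203 CPM (0.42). Of the 10 measured genes of this list 10 were higher at E14.5 and 1, Ly6d, past 2-fold, with a median log2 fold of 0.53 against 0.23 in the other barcodes. Without marked doublets 9 of 10 were higher, with a median of 0.62. Of 8 measured interferon response genes 8 were higher and 2 past 2-fold, Isg15 and Ifi27l2a, with a median of 0.52 against -0.09 in the other barcodes and 0.59 without marked doublets. The lists share Bst2 and Irf7.

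The monocytic genes did not move as 1 group. Ms4a6c was higher at E14.5 by a log2 fold of 0.77, with intervals that did not overlap (58.9 to 66.1 and 102 to 117 CPM). Clec12a, an inhibitory lectin of myeloid cells, was at 120.4 and 163 CPM (0.42). Ccr2, the chemokine receptor that lets monocytes leave the marrow, was at 63.1 and 38.4 CPM (-0.65), and Lyz2, lysozyme, at 60.2 and 43.5 CPM (-0.43). Of 10 measured monocyte genes 4 were higher and 6 lower, with a median of -0.26, although the list summed to 532 CPM at E13.5 and 595 at E14.5.

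Among lysosomal and phagocytic genes the pore-forming Mpeg1 went from 17.9 to 38.4 CPM (0.93), the protease Ctsh from 18.6 to 35.4 (0.78) and progranulin, Grn, from 22.2 to 40.4 (0.74). Ncf1 and Ncf4, which encode subunits of the phagocyte oxidase, had log2 folds of -0.17 and -0.25. Of the 20 genes of this list 7 were higher, 13 lower and 0 past 2-fold, with a median of -0.06. Ly86, a partner of a Toll-like receptor relative, was at 164 and 243 CPM (0.56), while Myd88, the adaptor of that pathway, was at 35.2 and 32.0 CPM (-0.12).

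Granulocyte genes were lower for the most part. Mpo was at 1188 CPM (1172 to 1203) and 812 (792 to 833), a log2 fold of -0.54, and Csf3r, the receptor of the granulocyte growth factor, at 17.6 and 6.94 CPM (-0.92). S100a8 was at 28.7 and 0.786 CPM (-2.54), and without marked doublets its fold was -1.85. Prtn3 stood at 877 and 922 CPM (0.07). Of 7 measured genes 2 were higher and 5 lower, 2 of them past 2-fold, with a median of -0.54 in members and -0.66 in the other barcodes. Without marked doublets 6 genes stayed measured, 2 higher and 4 lower, 1 of them past 2-fold, and the median was -0.24. S100a9, the partner of S100a8, was past 2-fold with all members (-1.24) and not without marked doublets (-0.16).

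Progenitor genes split. Cd34 was at 447 CPM (437 to 457) and 281 (269 to 293), a log2 fold of -0.66, where the other barcodes went from 480.4 to 178. Kit, the stem cell factor receptor, was at 25.8 and 18.1 CPM (-0.42), Flt3 at 157 and 156 (-0.00), and Sox4, a transcription factor of immature cells, at 329 and 389.8 (0.24). Of 11 measured genes 4 were higher, 7 lower and 0 past 2-fold, with a median of -0.16 against -0.65 in the other barcodes. The fetal program, the Lin28b and Hmga2 group that marks fetal rather than adult progenitors, had 1 of 8 measured genes higher and 7 lower, with a median of -0.19 and 0 past 2-fold.

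**Figure D3:**
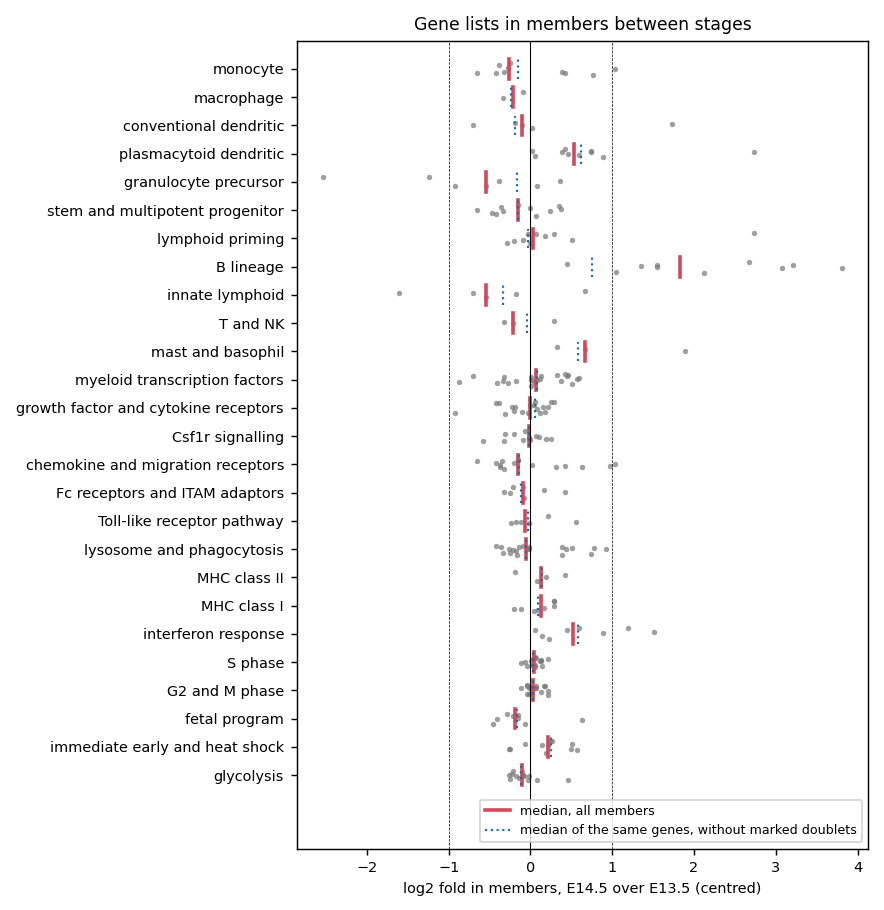
Centred log2 folds in members between E14.5 and E13.5 for each gene list (grey points, 1 per measured gene), with the median over all members (red line) and the median of the same genes without marked doublets (blue dotted line). B lineage genes lie farthest to the right and their median moves most without marked doublets, plasmacytoid and interferon response genes lie right of 0, and cell cycle genes lie close to 0.

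The receptors and transcription factors behind the myeloid program differed little. Csf1r was at 164 and 142 CPM and Cx3cr1 at 53.7 and 47.7 CPM, as the rule chose them. Csf1 itself was at 1.18 and 2.36 CPM and Il34, the other ligand of Csf1r, had 0 UMIs at both stages. Of 13 measured genes of the Csf1r pathway 4 were higher, 9 lower and 0 past 2-fold, with a median of -0.02. The largest difference there was Dok2, an adaptor that dampens receptor signals, at 58.6 and 37.6 CPM (-0.58). Among 19 measured growth factor and cytokine receptors 0 were past 2-fold, with a median of -0.00.

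Of 22 measured myeloid transcription factors 15 were higher, 7 lower and 0 past 2-fold, with a median of 0.06. Irf8 was at 445 and 557 CPM (0.32) with intervals that did not overlap, and Runx2, which plasmacytoid cells need to leave the marrow, at 74.5 and 104 CPM (0.46). Id2 was at 127 and 76.4 CPM (-0.70), Irf5 at 59.9 and 43.8 (-0.41) and Spi1 at 350.0 and 308 (-0.18). Cxcr4, the chemokine receptor that keeps progenitors in the niche, was at 19.9 and 43.9 CPM (0.97), near but under 2-fold. Of 15 measured chemokine and migration receptors 6 were higher, 9 lower and 1 past 2-fold higher, with a median of -0.16.

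Proliferation genes were at similar levels at both stages. Top2a, the topoisomerase of dividing cells, was at 621 and 602 CPM, and Mki67 at 187 and 197. The 18 S phase genes had a median log2 fold of 0.05 and the 18 G2 and M phase genes 0.03, with 0 past 2-fold in either. Glycolysis genes were lower in 11 of 13, by a median of -0.11.

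Members were then set beside 3 other sets of barcodes of the same libraries, each by its own rule and without members. The first set held 295 barcodes at E13.5 and 105 at E14.5 with at least 1 UMI each of Batf3, Id2 and Nrp1, genes of conventional dendritic cells. It also carried Tcf7 and Lta, genes of innate lymphocytes, and is called by its rule for that reason. The second set, the granulocyte precursor barcodes, held 240 and 164, and the third held 619 and 866 barcodes with at least 2 Siglech and 1 Irf8 UMIs. Of the members, 20 (3.17%) and 6 (2.30%) also met the second rule and 92 (14.6%) and 66 (25.3%) the third.

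Against granulocyte precursor barcodes, members were past 2-fold higher in both libraries for 131 of 8049 genes (1.63%) and lower for 340 (4.22%), the largest counts of the 3 comparisons. The centring there took off a median log2 fold of 0.13 and 0.11. Of 13 measured granulocyte genes 12 were past 2-fold lower, Mpo and Elane of the rule among them, with medians of -5.08 and -5.07. S100a9 was at 11.8 and 2.10 CPM in members against 2932 and 1407 CPM, and Ms4a3, a gene of committed granulocyte and monocyte progenitors, at 6.08 and 2.36 against 883 and 997. Cebpe, the transcription factor of granule genes, was at 2.04 and 1.18 CPM against 299 and 187. Higher in members were Flt3 (157 and 156 against 29.6 and 26.1 CPM), the cell cycle regulators Ccnd1 and Ccnd2, the interferon-inducible Ifi203 and Mndal, and Hmga2. Of 12 measured monocyte genes 7 were past 2-fold lower in members and 1 higher, with medians of -1.60 and -1.39. F13a1 was at 50.02 and 37.2 CPM in members against 143 and 169.8, while Ms4a6c was at 62.4 and 109.7 CPM in members and 62.1 and 112 in the granulocyte precursor barcodes.

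Against the Siglech and Irf8 barcodes, 20 of 7988 genes (0.25%) were past 2-fold higher in members in both libraries and 69 (0.864%) lower. F13a1 was at 50.02 and 37.2 CPM in members against 4.35 and 4.16, Prtn3 at 877 and 922 against 193 and 173, and Mpo at 1188 and 812 against 291 and 150.5. Lower in members were Ly6d (9.09 and 89.0 against 199 and 1625 CPM), Jchain, Ccr9, a gut homing receptor, and Cox6a2. Of 11 measured plasmacytoid genes 7 were past 2-fold lower, Siglech of the rule among them, with medians of -1.31 and -1.84. Irf8, which that rule used too, was at 445 and 557 CPM in members and 480 and 881 CPM in those barcodes.

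Against the Batf3, Id2 and Nrp1 barcodes, 14 of 8077 genes (0.173%) were past 2-fold higher in members and 96 (1.19%) lower. Mpo was at 360 and 188 CPM in those barcodes, and Hmga2 at 238 and 155, both below the members. Ctsg, a further granule protease, was at 21.2 and 28.7 CPM in members, with log2 folds of 1.98 and 2.29 over those barcodes. Cd74, the invariant chain of MHC class II, was lower in members, at 10.5 and 8.52 CPM against 107 and 226, as was Cd7, at 14.7 and 28.4 against 88.6 and 263. Of 7 measured granulocyte genes 4 were past 2-fold higher in members, Mpo, Elane, Prtn3 and Ctsg, and of 12 innate lymphoid genes 8 were past 2-fold lower, Id2 of the rule among them.

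**Figure D4:**
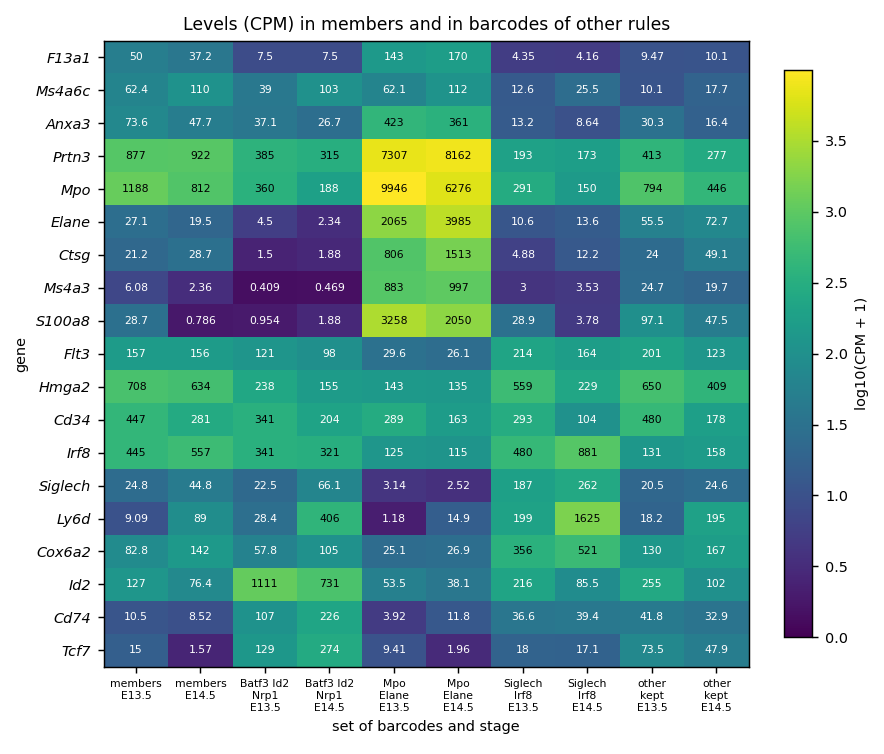
Levels (CPM of summed UMIs, printed in each cell and coloured as log10 of CPM + 1) of 19 genes in members, in the barcodes of 3 other rules and in the other kept barcodes, at both stages. Members combine Mpo and Prtn3 with Flt3, Hmga2 and Irf8, and are low in Elane, Ms4a3 and S100a8 beside the Mpo and Elane barcodes and in Ly6d beside the Siglech and Irf8 barcodes.

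The members were not uniform. They were divided into 6 sub-clusters over both libraries, which are described by their leading genes and left unnamed. Since many leading genes also differed between stages, the sizes of the sub-clusters are not compared further between stages. The shares of sub-cluster 3 given above are a description only. Csf1r ran from 110 to 189 CPM over the sub-clusters and Flt3 from 127 to 217, while Mpo ran from 233 to 1432, Irf8 from 199.9 to 629 and Hmga2 from 368 to 1288.

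Sub-cluster 1, with 268 members, had the highest F13a1 (75.8 CPM against 31.8 in the other members), with Ms4a6c at 109 CPM and Prtn3 at 1290 CPM (1266 to 1314). Its leading genes were however Cpa3, Hdc and Mcpt8, genes of mast cells and basophils, and the mast and basophil list summed to 133 CPM against 8.99. Over all members that list summed to 38.2 CPM at E13.5 and 78.1 at E14.5, and to 17.5 and 30.4 CPM without marked doublets, of which this sub-cluster held 15. Sub-cluster 2, with 166 members and 0 marked doublets, was led by Ung, Ccne2 and Ccne1, genes of the entry into S phase. It had Irf8 at 597 CPM and Ms4a6c at 106 CPM, and of 18 G2 and M phase genes 13 were past 2-fold lower than in the other members. Its median depth was 21571 UMIs, against 27365.5 in all members.

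Sub-cluster 3, with 158 members, had the lowest Mpo (233 CPM against 1258) and Cd34 (193 against 442) and the highest Siglech (101 against 15.7), Ly86 (320 against 159) and Il7r (178 against 112). It was led by Igll1, Vpreb3 and Cd79a, and 28 of its members (17.7%) were marked doublets, the highest share of the 6. When the members were divided again without marked doublets, into 5 groups, 1 group of 171 cells was led by Siglech at 89.1 CPM with Irf8 at 674, Mpo at 276 and Cd79a at 17.2. The low Mpo and high Siglech were thus also seen without marked doublets.

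Sub-clusters 4, 5 and 6 held 135, 110 and 55 members and had the higher levels of primitive genes. Kit was at 35.0, 38.8 and 45.4 CPM in them, against 13.7 to 15.8 CPM in the first 3. Cd34 was at 542, 571 and 522 CPM, and Irf8 at 309, 199.9 and 437. Sub-cluster 4 was led by S100a9, Ccl5, S100a8 and Elane (84.1 CPM against 14.6), and 20 of its members (14.8%) were marked doublets. Without marked doublets, Stfa1, Elane and S100a8 led another group instead, of 238 members. It had F13a1 at 91.5 CPM, Ms4a6c at 134 and Kit at 17.0. Stfa1, Elane and S100a8 thus did not lead a group with high Kit and Cd34 there. Mpo was however at 1100 and 1358 CPM in the groups of 129 and 68 members. Those groups had the highest Kit, at 34.6 and 45.4 CPM, and the highest Cd34, at 588 and 533 CPM. Sub-cluster 5 was led by Ctla2a, Car2 and the T cell receptor constant gene Trbc2, with Ms4a6c at 21.2 CPM, and sub-cluster 6 by Calcrl, Dnmt3b and Hmga2 (1288 CPM against 641). In sub-cluster 6 Irf8 was close to the level in the other members (481 CPM). The 3 leading genes of sub-cluster 6 were under 2-fold, and the larger difference there was in immediate early and heat shock genes, which respond to stress and handling. That list summed to 596 CPM against 2801 in the other members, and 10 of its 11 measured genes were past 2-fold lower, with a median of -2.49. Its part in this division was not tested.

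**Figure D5:**
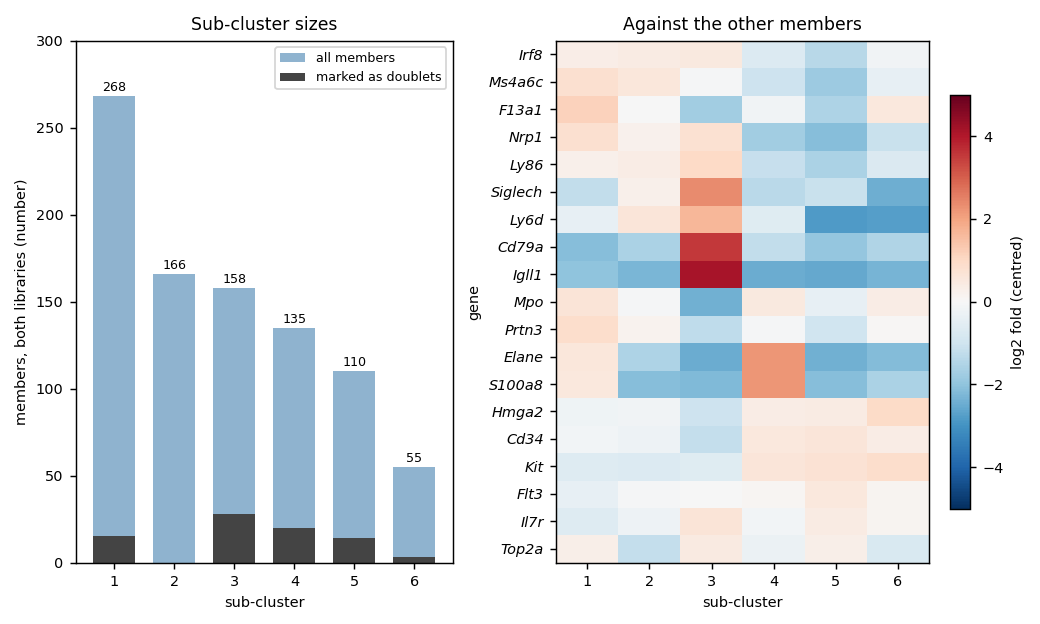
Number of members in each of 6 sub-clusters over both libraries, with the number marked as doublets in dark (left), and centred log2 folds of 19 genes in each sub-cluster against the other members (right). Sub-cluster 3 is high in Siglech, Ly6d, Cd79a and Igll1 and low in Mpo, and sub-clusters 4 to 6 are higher in Kit, Cd34 and Hmga2.

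The boundaries of the sub-clusters depended on the settings. With 2 other seeds, a resolution of 1 or without cell cycle genes, 7, 4, 12 and 6 sub-clusters were found, and the adjusted Rand index with the first division (1 for the same division, 0 for unrelated ones) was 0.640, 0.618, 0.489 and 0.466.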

How the data were processed

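The 4 groups of mouse embryonic cells, with 1 library each, were profiled by 10x Genomics 3' single-cell RNA sequencing. The authors deposited filtered matrices of UMI counts per gene and barcode, made with Cell Ranger 3 on mm10 per the submitters' processing notes and 3.0.0 for fetal liver per the file headers. The gene model release is not given in the sources used here. Counts were summed over members and given as CPM. Folds are log2 of CPM + 5 in each set, centred on the median of genes with at least 10 CPM in either set, and past 2-fold means at least 1 on that scale (in both libraries for comparisons of sets). No test was made, since each group is 1 library. Intervals are 95% exact Poisson for levels and Clopper-Pearson for shares, and cover counting error only. The fold calculation was tested on simulated data.

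Members and gene lists were chosen with earlier results of these data known. Besides list genes, the text names the 12 highest and 12 lowest stage folds among genes with at least 20 CPM and intervals that do not overlap, the 20 highest and 10 lowest against the other barcodes, the 10 highest and 10 lowest against each compared set, and the 10 leading genes of each sub-cluster, without mitochondrial, ribosomal and predicted genes. Doublets were marked with Scrublet in scanpy 1.11.5 and kept unless stated. Sub-clusters came from 2000 variable genes, 20 components, 15 neighbours and Leiden clustering at a resolution of 0.5. Python 3.11.15, numpy 2.4.6, scipy 1.17.1 and pandas 2.3.3 were used. Alternatives changed the UMI thresholds, the mitochondrial limit, the pseudocount, the minimum level, the centring, the averaging, the depth and the doublets. Some list genes are not reported here.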

Additional observations from a re-analysis of the deposited data

Results flagged for a closer look

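The same rule found barcodes in embryonic periphery, which the comparisons above do not use. There were 48 of 4305 kept barcodes at E13.5 (1.11%, Clopper-Pearson interval 0.823 to 1.48%) and 15 of 4505 at E14.5 (0.333%, 0.186 to 0.549%). Their transcripts differed from those of fetal liver members: C1qb, the macrophage complement gene, was at 1974 and 3597 CPM, Lyz2 at 971 and 4452 CPM and Adgre1 at 114 and 309 CPM, while Flt3 was at 30.2 and 5.06 CPM. Tissue and chemistry cannot be told apart in that comparison.

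Tcf7, a transcription factor of innate lymphocytes and T cells, differed in opposite directions between the stages. In members it was at 15.01 CPM at E13.5 and 1.57 at E14.5, a log2 fold of -1.60 that was -1.11 without marked doublets. In the barcodes with Batf3, Id2 and Nrp1 UMIs it was at 129 and 274 CPM, a log2 fold of 1.03. The difference between these folds was not tested.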

How the results depend on the processing

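No paired analysis was possible because each group is 1 library. The share of members, 5.93% at E13.5 and 2.23% at E14.5, was 7.49% and 2.999% with at least 1 Csf1r UMI, 4.45% and 1.58% with at least 3, 1.96% and 0.547% with at least 2 Cx3cr1 UMIs, and 1.28% and 0.488% after thinning to 8000 UMIs. It was lower at E14.5 in each of these. At E13.5 it was also 6.63% with Batf3 not used and 8.75% with at most 5% mitochondrial UMIs. The 30 genes past 2-fold higher at E14.5 were 19 with a minimum of 20 CPM, 13 without marked doublets, 11 without those and barcodes with a Cd79a UMI (chosen after seeing the data), and 247 after thinning. The 9 lower were 22 with a pseudocount of 1 CPM and 242 after thinning, which left 126 and 49 members of 8000 UMIs each. With a pseudocount of 1 CPM, the counts against the other barcodes were 29 higher and 114 lower, against the Batf3, Id2 and Nrp1 barcodes 26 and 171, against granulocyte precursor barcodes 224 higher, and against the Siglech and Irf8 barcodes 142 lower. With 10 CPM they were 34 lower, 54 lower and, against the Siglech and Irf8 barcodes, 13 higher. With the mean of per-barcode CPM, 28 were higher and 160 lower against the Batf3, Id2 and Nrp1 barcodes. The stage fold of Cd79a was -0.0042 without marked doublets and barcodes with Cd79a, by construction, and that of S100a9 was 1.003 after thinning, and the cause was not tested. Of single genes, 2696 values stayed within the limit set for them and 432 moved past it. That limit was the counting interval for stage folds and a fixed log2 difference for comparisons of sets. Depth limits genes under 10 CPM, and 1 library per stage gives no measure of variation between embryos.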
